A study of Oncorhynchus kisutch with 82 samples.

Results

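Gill RNA was compared between coho salmon (Oncorhynchus kisutch) smolts of 2 rivers, sampled in fresh water in 2009. The members are the arrays that the labels give the river smolt season, the year 2009 and the capture area chehalis or salmon, which makes 12 of the 82 gill arrays. The Chehalis group held 8 hatchery fish, 6 males and 2 females. The Salmon River group held 4 wild fish, 2 males and 2 of unrecorded sex. All 12 carry the region label Fraser, and the labels give no age. Because every Chehalis smolt was a hatchery fish and every Salmon River smolt a wild one, river and origin cannot be told apart. The other arrays hold Chilliwack smolts of 2008, 8 of hatchery and 7 of wild origin, and fish caught at sea. Each array carried the amplified RNA of 1 fish beside a pool of gill RNA, and the deposited value of a probe is the log ratio of the 2 channels.

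The gill takes up oxygen and, in salmon, is the main organ of salt balance. Before a juvenile goes to sea, smolting changes its ion-transporting cells from taking up salt to secreting it, under the control of growth hormone, cortisol and thyroid hormone. Body size is known to bear on when a young salmon smolts, and hatchery fish are often larger than wild fish of the same season, so size, origin and river commonly vary together.

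No file links a probe to its gene, so probes are given by their array IDs, and markers of gill cell types or of salt transport could not be examined. For the log base and for which channel is the numerator, the answer is not given in the sources used here. Values were taken as log2. A higher log ratio below can therefore stand for more fish RNA or for less, relative to the pool. In bulk gill, fewer cells of a type and less RNA per cell cannot be told apart.

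The Chehalis smolts were longer and heavier than 3 of the 4 Salmon River smolts, and the fourth was as large as they were. Salmon River fish 1435, 1439, 1441 and 1442 measured 8.4, 8.8, 8.7 and 11.7 cm in fork length. The Chehalis fish ranged from 11.4 to 12.5 cm around a median of 11.6 cm. Fish 1442 thus lay inside the Chehalis range, and the lengths of the other Salmon River fish did not overlap it. Mean fork length was 11.7 ± 0.400 cm (SD, n = 8) against 9.40 ± 1.54 cm (SD, n = 4), a difference of 2.34 cm (exact permutation test, two-sided, p = 0.0283, adjusted p = 0.0424 over 3 measures). Total mass was 17.2 ± 1.77 g (SD, n = 8) against 8.67 ± 4.97 g (SD, n = 4), a difference of 8.52 g (exact permutation test, two-sided, p = 0.0121, adjusted p = 0.0364). Condition factor, which is 100 times mass over length cubed and describes how stout a fish is, was 1.06 ± 0.0549 (SD, n = 8) in Chehalis and 0.973 ± 0.0644 (SD, n = 4) in Salmon River smolts, and its ranges overlapped (exact permutation test, two-sided, p = 0.0444, adjusted p = 0.0444). With single fish left out the adjusted p was above 0.05 in 8 of 12 such tests for fork length, 8 for mass and 9 for condition factor.

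The arrays of the 12 smolts differed in their overall profile within each river as well as between the rivers. An array gave a value for 17859 to 31584 of 43236 probes, and the SD of its log ratios was 0.687 to 1.06, below the 1.30 above which 14 other arrays of the series lay. A value on all 12 arrays was present for 15948 probes. None of the 12 stood apart by these measures. They did vary along the wide-spread profile, which is the mean of those 14 arrays minus the mean of the remaining arrays outside the 12. Correlation with it across probes ran from -0.431 in Chehalis fish 1615 to 0.435 in Salmon River fish 1439. The highest Chehalis fish was 1618, at 0.192. Means were 0.163 in Salmon River and -0.109 in Chehalis smolts, and the ranges overlapped. Pairs of Salmon River arrays correlated at 0.687 to 0.807 (median 0.714, 6 pairs), and pairs of Chehalis arrays at 0.296 to 0.785 (median 0.635, 28 pairs). Between the rivers the range was 0.0886 to 0.765 (median 0.549, 32 pairs). The Salmon River pairs thus had the higher median correlation, and the correlations between rivers overlapped with those inside each river. The spread of single probes was alike, with a median SD among fish of 0.372 in Salmon River and 0.369 in Chehalis smolts. These are correlations across probes, which are not independent replicates.

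**Figure D1:**
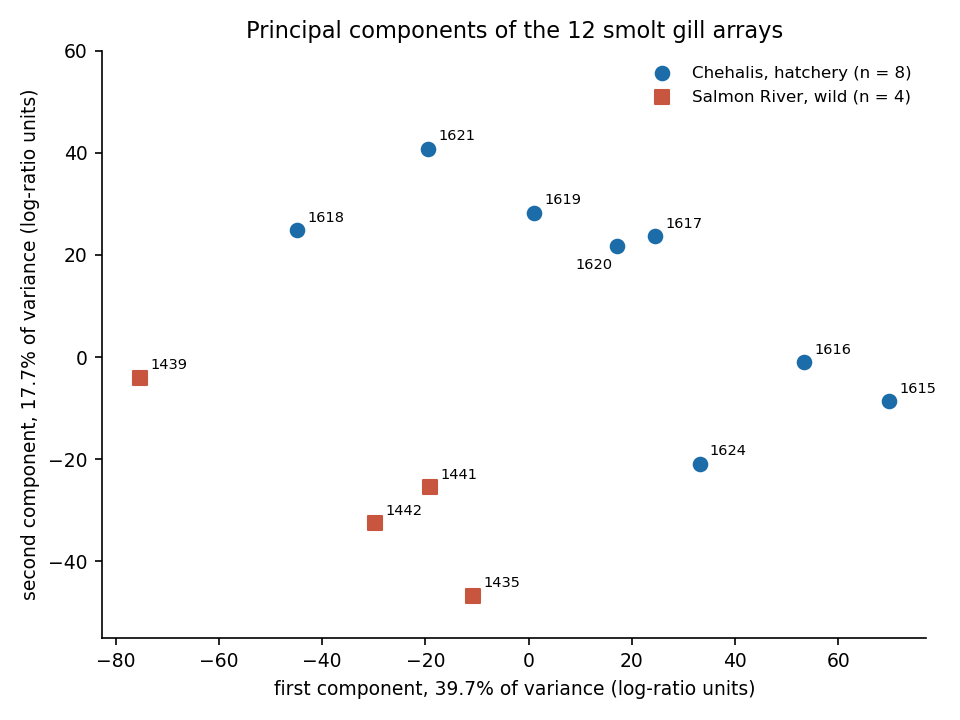
Scores of the 12 arrays on the first principal component (horizontal, log-ratio units) and the second (vertical), from probes measured in all 12 fish, with circles for Chehalis and squares for Salmon River fish and fish numbers beside them. The first component runs within both rivers, from fish 1439 at -75.3 to fish 1615 at 69.8, and the rivers lie apart only when both components are read together.

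On the plot of principal components no single axis parted the rivers. The first component held 39.7% of the variance and ran from -75.3 to -10.8 in Salmon River and from -44.8 to 69.8 in Chehalis smolts. The second held 17.7% and ran from -46.8 to -4.02 in Salmon River and from -20.9 to 40.9 in Chehalis smolts. Both ranges overlapped. Chehalis fish 1618 lay among the Salmon River fish on the first component, at -44.8, and correlated at 0.765 with Salmon River fish 1439, the highest value between the rivers. Chehalis fish 1615 and 1616 lay at the other end, and 1615 had the lowest correlation of all pairs, 0.0886, also with fish 1439.

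Many probes differed between the rivers when the 12 smolts were fitted alone, in both directions in nearly equal number. In limma, 2589 of 23171 probes tested were called at an adjusted p below 0.05, which is 11.2% of them, 1297 with a higher and 1292 with a lower log ratio in Chehalis smolts. The difference was at least 1 log2 unit for 1459 probes, 6.3% of those tested, and these leaned to the higher side, with 910 higher and 549 lower. The median size of a called difference was 1.05 log2 units, and the largest was 3.32. An unadjusted p below 0.05 was reached by 6875 probes. When only probes measured in all 12 fish were tested, 1120 were called at any size, 414 higher and 706 lower, against the even split of 1297 and 1292 above.

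Probe C033R059 shared the lowest adjusted p of all probes. Salmon River fish 1435, 1439, 1441 and 1442 had log ratios of -0.01, 1.14, 0.10 and 0.97, and the Chehalis fish lay between -2.18 and -1.30 with a median of -1.81. Every Chehalis fish was below every Salmon River fish, with a clear gap and a narrow spread. The means were -1.80 ± 0.29 (SD, n = 8) and 0.55 ± 0.59 (SD, n = 4), a difference of -2.35 ± 0.24 log2 units (SE) with an adjusted p of 0.000839 in limma.

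Probe C163R101 was also lower in Chehalis smolts, but its groups overlapped. The log ratios of fish 1435, 1439, 1441 and 1442 were -1.39, -0.87, -3.74 and -2.20. The Chehalis fish ranged from -5.08 to -2.94 around -4.70. Chehalis fish 1620 and 1624 lay above Salmon River fish 1441. The means differed by -2.30 ± 0.51 log2 units (SE, adjusted p = 0.0163 in limma).

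The 2 probes with the largest positive differences, among called probes with a value in every fish, had some Chehalis fish at the Salmon River level. For C226R135 the values of fish 1435, 1439, 1441 and 1442 were -2.25, -3.07, -3.58 and -2.52, and those of the Chehalis fish ran from -2.80 to 1.84 with a median of 0.78. Chehalis fish 1618 at -2.80 and 1621 at -2.26 lay in the Salmon River range, and the other 6 lay above it. The difference was 3.02 ± 0.78 log2 units (SE, adjusted p = 0.0270 in limma). For C069R076 the same Salmon River fish had -2.49, -3.10, -3.23 and -2.81, and the Chehalis fish ran from -2.63 to 1.07 with a median of 0.19. Here only fish 1618, at -2.63, fell in the Salmon River range, and its next neighbour in the Chehalis group was fish 1619 at -0.21. The difference was 2.83 ± 0.49 log2 units (SE, adjusted p = 0.00610 in limma).

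**Figure D2:**
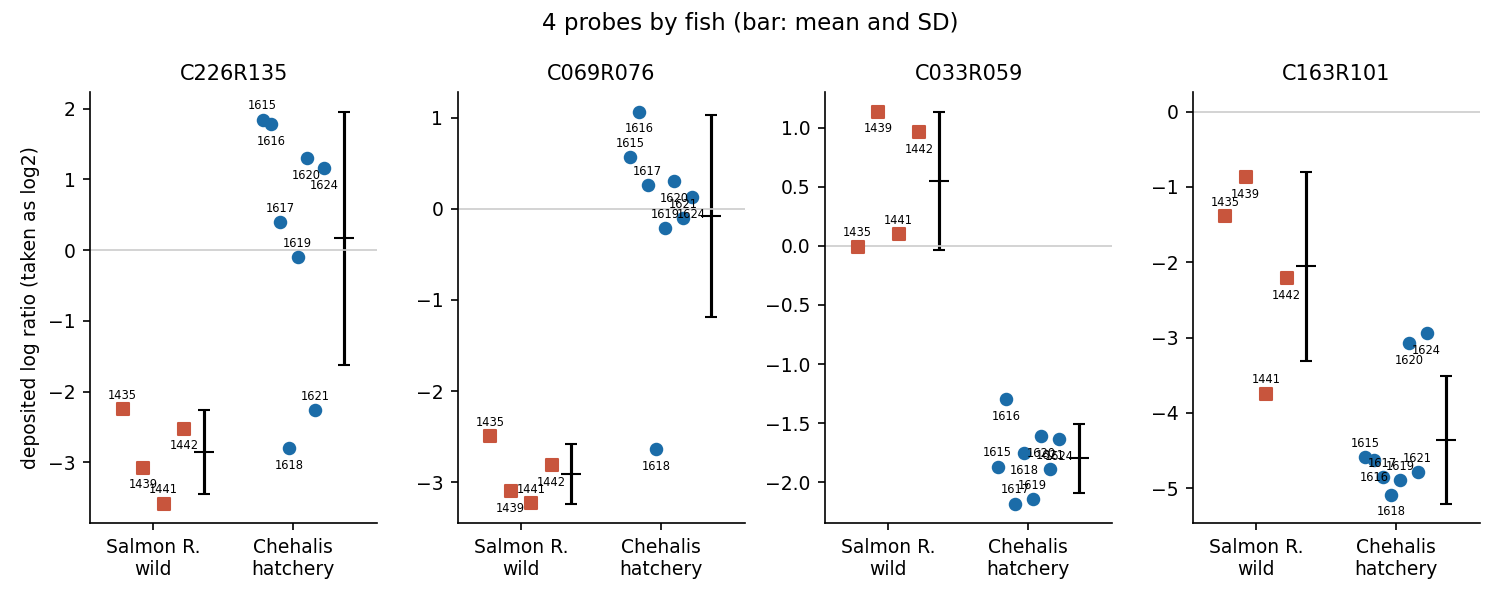
Deposited log ratios (vertical, taken as log2) of the 4 named probes in each smolt, with squares for Salmon River and circles for Chehalis fish, fish numbers beside the points, and a bar for the mean with its SD. The groups do not overlap for C033R059, while Chehalis fish 1618 lies at the Salmon River level for C226R135 and C069R076.

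Such overlap was common among the called probes. Of 1384 called probes with a value in every fish, 664 had groups that did not overlap. Over all 15948 probes with a value in every fish, 819 had groups that did not overlap, which is 5.14%, and 1384 were called. In most called probes the Salmon River mean was the further from 0. Of the 1297 probes higher in Chehalis, the median of the Chehalis means was 0.14 and that of the Salmon River means -1.11, and the Salmon River mean was further from 0 for 87.0%. Of the 1292 lower probes these medians were -0.18 and 0.79, and the share was 71.7%. Over all probes tested the share was 63.7%. The Salmon River arrays also had the wider log ratios on average, with array SDs of 0.850 to 1.06 (mean 0.920) against 0.687 to 0.920 (mean 0.768) in Chehalis fish, ranges that overlap. Quantile normalization, which gives all arrays the same spread, left 1242 calls, 583 higher and 659 lower. The pool was made of gill RNA of all fish, and the deposited log ratios were centred near 0 on each array.

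The Chehalis smolts were the closer group to fish of other places, arrays of wide spread left out. Of 2540 called probes with enough values in 8 Chilliwack smolts of 2008, the Chehalis mean was the nearer for 78.0%, against 62.1% of 22702 probes tested. These Chilliwack smolts were 3 hatchery and 5 wild fish. For 48 ocean fish the shares were 83.9% of 2554 called and 69.7% of 22714 tested probes. For the 4 spring fish of 2009, caught at sea, they were 91.2% of 2571 and 73.3% of 23013. The Chehalis mean was over 8 and the Salmon River mean over 4 fish, and the part of this and of the array spread in these shares was not tested.

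The count of called probes depended on which fish and which terms were in the fit. Without single fish it was 704 (fish 1439), 1275 (1616), 1440 (1435), 1443 (1620), 1546 (1441), 1555 (1615) or 1681 (1617), and for the others it ranged from 1737 to 3335, the highest without fish 1618. C226R135 lost its call without fish 1439, 1441 or 1442, with adjusted p of 0.0763, 0.0690 and 0.05001 in limma, and C163R101 without fish 1439 (adjusted p = 0.0626 in limma). With 1 spread shared by all 82 arrays, 102 probes were called. That fit keeps the mean of each group, so the differences of the 4 named probes were the same by design. Only that of C033R059 was called. Without the wide-spread arrays the shared spread gave 996 calls, a setting chosen after seeing the data. With slide as a random block over all arrays 97 were called, and with slide as a fixed block 11. For fish 1442 the slide number in its array position was used in these fits, and the labels give another in its raw data name.

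**Figure D3:**
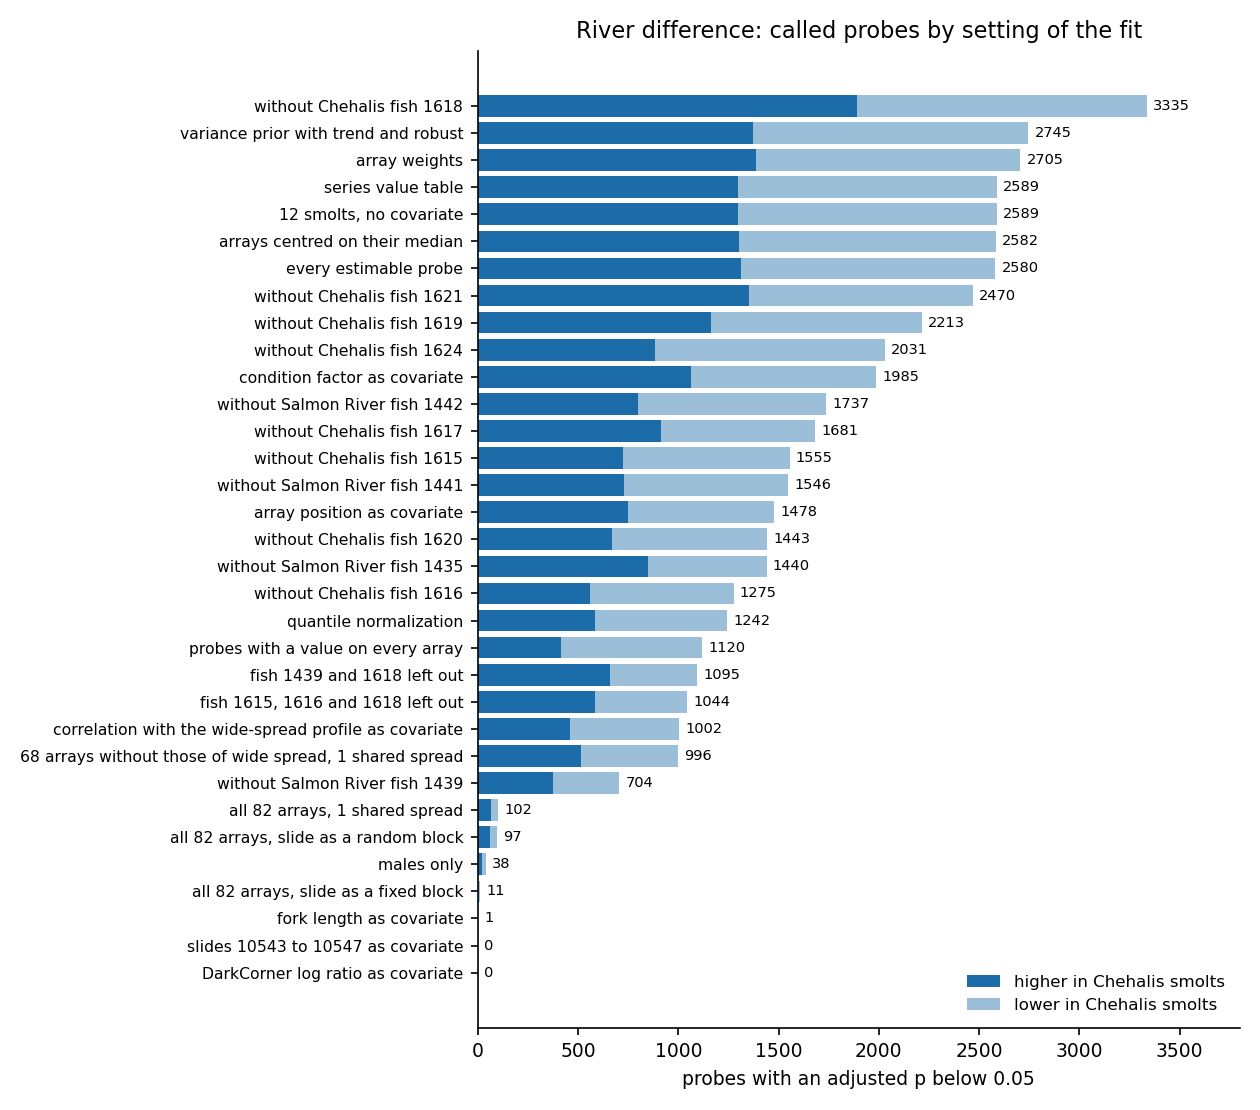
Number of probes with an adjusted p below 0.05 for the river difference (horizontal, stacked by direction of the deposited log ratio in Chehalis smolts) under each setting of the fit (vertical, sorted by count). The count runs from 3335 without fish 1618 through 2589 for the 12 smolts with no covariate to 0 with either of 2 array terms.

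Some measures of the array itself moved with the river. DarkCorner spots, which are control spots that hold no gill probe, had log ratios of 0.32, 0.66, 0.21 and -0.27 in Salmon River fish 1435, 1439, 1441 and 1442. In Chehalis smolts they ran from -0.81 to -0.18 with a median of -0.54. The groups overlapped only through fish 1442, and the means of 0.23 ± 0.39 (SD, n = 4) and -0.52 ± 0.23 (SD, n = 8) differed (exact permutation test, two-sided, p = 0.00808). That p was not adjusted for the choice among control spots. GE_BrightCorner control spots averaged -0.51 in Chehalis and -0.36 in Salmon River smolts, with overlapping ranges. The E1A_r60_3 control averaged 0.35 and 0.33 in that order. No other control spot had a value on all 12 arrays. The slide numbers also ran together with the river. Salmon River fish 1435, 1439 and 1441 and Chehalis fish 1624 lay on 4 slides of consecutive numbers, and no other of the 12 had a slide in that run. With the DarkCorner log ratio as a covariate limma called 0 probes, with 2514 at an unadjusted p below 0.05. With a term for those 4 slides it also called 0, with 4412 at an unadjusted p below 0.05. The differences of C033R059 in these fits were -2.47 and -2.44 log2 units, with adjusted p of 0.205 and 0.0543 in limma. Both terms were chosen after seeing the data, and what part the array had in the river difference was not tested.

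With fork length in the fit, none of the 2589 differences kept its call. At equal fork length 1 of 23171 probes was called in limma, 0.00432%, and it was not among the 2589. The median size of the 2589 differences went from 1.05 to 0.994 log2 units, while the median SE went from 0.257 to 0.426. Of the 2589, 2432 had the same sign at equal length and 1230 an unadjusted p below 0.05. These probes were chosen for their river difference in the same fish, so both counts are partly built in. The shared sign was not counted over all probes. Over all probes 3007 had an unadjusted p below 0.05 in this fit. Fork length and river correlated at 0.799 over the 12 fish, so the fit can part them only through fish 1442 and the small range inside the Chehalis group. Probes could enter without a value in fish 1442, and for these only the small length ranges inside each river were left. Some single differences changed sign and grew in size, as that of C144R141 from 2.03 to -6.10 log2 units. With condition factor as the covariate 1985 probes were called.

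Fish 1442 is the fish in which length and river part, and it stood nearer its own river than the other. Each smolt was placed between the river means on the 200 probes of largest moderated statistic in a fit without that smolt, where 0 is the Salmon River mean and 1 the Chehalis mean. Fish 1435, 1439 and 1441, of 8.4 to 8.8 cm, stood at 0.237, 0.215 and 0.242. Fish 1442, of 11.7 cm, stood at 0.331, the highest of its river, as it also did with 50 and 1000 probes (0.393 and 0.308). It was placed against the mean of the 3 small fish, while the means for the small fish included it. Its DarkCorner log ratio lay in the Chehalis range. By either slide number in its labels, its slide lay outside the run of the other Salmon River slides. Chehalis fish 1616, also of 11.7 cm, stood at 1.02. The Chehalis smolts ranged from 0.550 to 1.15 with a median of 0.915, so no Salmon River fish reached the lowest Chehalis fish, 1618. The next lowest were fish 1624, on the slide run of the Salmon River arrays, at 0.656, and fish 1619 at 0.763.

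**Figure D4:**
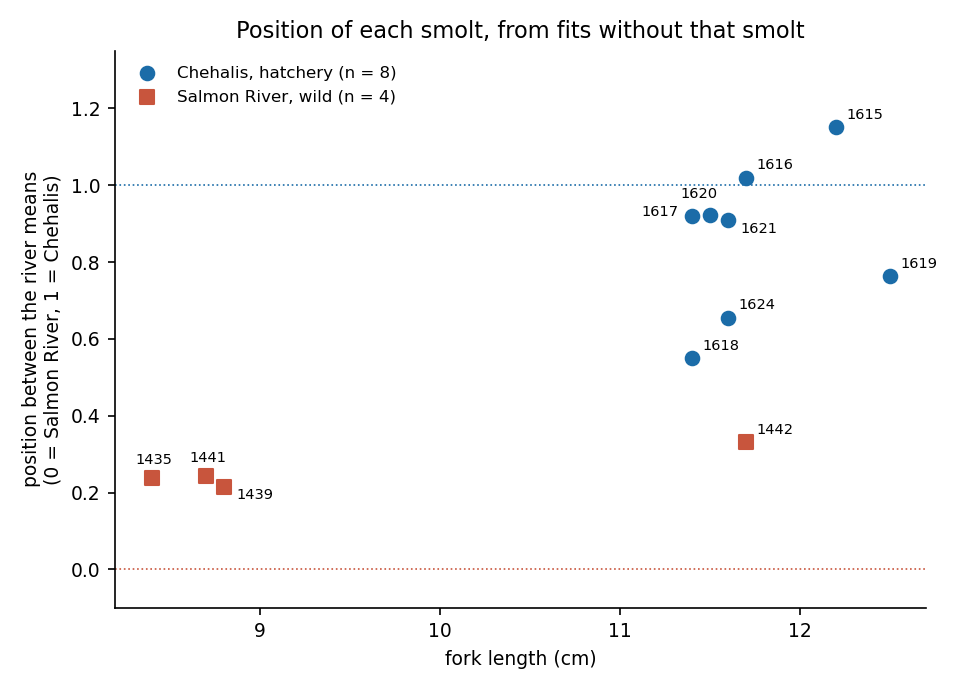
Position of each smolt between the 2 river means (vertical, 0 for the Salmon River and 1 for the Chehalis mean, marked by dotted lines) against its fork length in cm (horizontal). Fish 1442, at 11.7 cm, stands at 0.331 and the Chehalis fish of 11.4 to 11.7 cm stand between 0.550 and 1.02.

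The position was also read probe by probe in fits without the fish in question. Without fish 1442, 1737 probes were called, 1403 of them had a value in it, and it was nearer the mean of its own river for 909 of these, 64.8%. For the 3 smaller Salmon River fish the shares were 69.9% (fish 1435), 79.7% (fish 1439) and 67.2% (fish 1441). The large fish had the lowest share of its river, but each share came from another set of called probes. Fish 1442 was also set against the mean of the small fish alone, while the means for the small fish included it. In the Chehalis group the shares ran from 52.9% in fish 1618 to 94.0% in fish 1616. Fish 1618 was thus nearer the Salmon River mean for nearly as many probes as it was nearer its own. Its array also gave the fewest values, 17859.

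Within the Chehalis group no probe was called for fork length. These 8 fish span 11.4 to 12.5 cm, and 0 of 20749 probes (0%) passed in limma, while 391 (1.88%) reached an unadjusted p below 0.05. The smallest adjusted p was 0.898. On simulated data with the same fish, this fit recovered 52 of 100 slopes of 2 log2 units per cm and 1 of 100 slopes of 1 log2 unit per cm, so slopes of either size could be missed. The probe of lowest p with a value in every fish was C200R015, with a slope of -1.69 ± 0.27 log2 units per cm (SE, p = 7.76e-05 and adjusted p = 0.898 in limma). Its log ratios in Chehalis fish ran from -1.78 in fish 1619, the longest, to 0.24 in fish 1618, with a median of -0.22. Fish 1615, the second longest, had -0.99. In the Salmon River fish, in the order above, it had -0.39, 0.27, -0.25 and -0.19, with no such order by length.

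The next probes by p had slopes of the same sign in Chehalis fish. They were -1.48 ± 0.26 log2 units per cm (SE) for C132R109, -2.83 ± 0.54 (SE) for C122R073 and -1.75 ± 0.34 (SE) for C165R053, each with an adjusted p of 1.00 in limma. In all 3 the longest fish, 1619, had the lowest or second lowest value of its group, at -1.36, -2.49 and -2.55. None of these slopes passed the test. No relation of a whole-array measure with length passed the test in Chehalis smolts either. Over 8 fish, 5 relations were computed, and the position between the rivers had r = 0.265 (exact permutation p = 0.527) and rho = 0.337 (exact permutation p = 0.413). Without fish 1619 and 1615, the 2 farthest from the median length, r was 0.428. The first component had r = 0.305, the second -0.112, the array SD -0.0538 and the number of values 0.517. The smallest adjusted p by exact permutation was 0.879 for r and 0.689 for rho.

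With 1 slope shared by both rivers, a single probe was called, and it rests on 1 fish. C093R023 had a slope of -0.98 ± 0.12 log2 units per cm (SE, adjusted p = 0.0432 in limma). It was the only call among 23171 probes, 0.00432%, with 1576 at an unadjusted p below 0.05. Salmon River fish 1435, 1439, 1441 and 1442 had log ratios of 0.80, 1.09, 0.76 and -2.47, and the Chehalis fish ran from 0.59 to 1.43 with a median of 0.79. Apart from fish 1442 the smolts of 8.4 cm and of 12.5 cm had like values. On 56 arrays of other groups, wide-spread ones left out, the probe ranged from 0.03 to 1.59. Without fish 1442 its slope was -0.31 log2 units per cm (adjusted p = 1.00 in limma), and the adjusted p was above 0.05 without any other single fish too, except Chehalis fish 1619. It is also the 1 probe called for the river at equal fork length, with a difference of 3.12 ± 0.36 log2 units (SE, adjusted p = 0.0164 in limma).

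**Figure D5:**
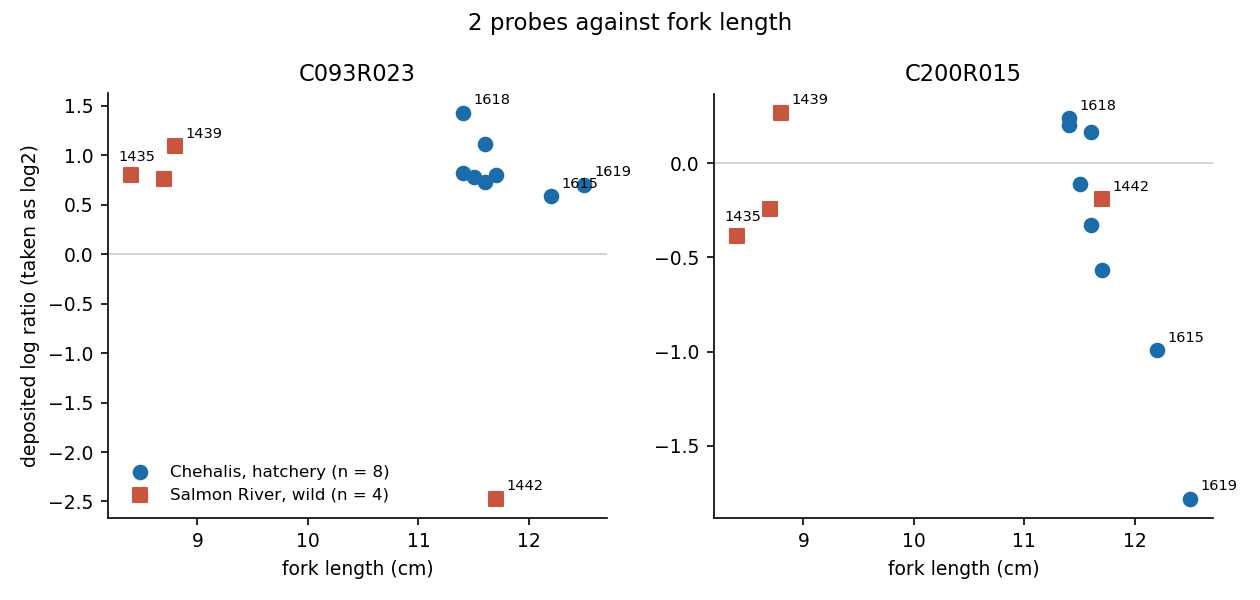
Deposited log ratios (vertical, taken as log2) of C093R023 and C200R015 in each smolt against fork length in cm (horizontal), with squares for Salmon River and circles for Chehalis fish. For C093R023 fish 1442 lies at -2.47 and the other fish between 0.59 and 1.43, and for C200R015 the 2 longest Chehalis fish lie lowest.

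The next probes for the shared slope followed the same fish. C174R013 had log ratios of 1.62, 1.69, 1.37 and -0.38 in the Salmon River fish, C110R132 had 0.35, 0.12, 0.71 and -2.27, and C227R068 had -1.44, -0.73, -1.18 and 1.23. In each of them fish 1442 lay apart from the smaller fish of its river. Their slopes of -0.62, -0.80 and 0.72 log2 units per cm had adjusted p of 0.202, 0.202 and 0.269 in limma. Because fish 1442 is the only large fish of its river, its length and anything else particular to that fish or array cannot be told apart in the Salmon River group.

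Slopes that differ between the rivers rest on the same footing. In limma 1 of 20423 probes was called, 0.0049%, with 602 at an unadjusted p below 0.05. This was C066R059, which has no value in fish 1442 and so lies outside the probes chosen for naming. It had 6.95 in fish 1435 and 0.18 and 0.13 in fish 1439 and 1441, and the Chehalis fish ran from -0.54 to 0.53. The fitted difference of slopes, 17.58 log2 units per cm (adjusted p = 0.0170 in limma), comes from 1 high value among 3 fish that differ by 0.4 cm or less. Among probes with a value in every fish none was called. The lowest p belonged to C200R015, with -1.69 ± 0.30 log2 units per cm (SE, Chehalis minus Salmon River), followed by C208R154 with -1.72 ± 0.34 (SE), C005R128 with -1.23 ± 0.25 (SE) and C165R143 with 1.33 ± 0.27 (SE), each with an adjusted p of 0.991 in limma. For C200R015 the slope was -1.69 in Chehalis and -0.01 in Salmon River fish. For C165R143 it was 0.37 in Chehalis and -0.96 in Salmon River fish, the latter again through fish 1442 at -2.28.

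The river difference was set beside the other hatchery and wild pair among river smolts, that of the Chilliwack in 2008. By the interaction term in limma, the difference of Chehalis minus Salmon River differed from that of Chilliwack hatchery minus wild for 208 of 18133 probes, which is 1.15%, and 3158 reached an unadjusted p below 0.05. It was the more positive for 143 and the more negative for 65. This balance turned with array weights, which gave 2795 calls, 1129 more positive and 1666 more negative. Quantile normalization gave 576 calls (355 and 221) and the values of the series table gave 392 (215 and 177). River system and year coincide here, so they cannot be told apart. Wide spread was found on 7 of the 15 Chilliwack arrays, and without these 185 probes were called. The count was 678 without the 5 cm Chilliwack fish 36 and 53 with the DarkCorner log ratio as a covariate, the latter chosen after seeing the data. It was 86, 90, 161 and 77 without Salmon River fish 1435, 1439, 1441 and 1442 in that order.

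C136R119 had opposite differences in the 2 pairs. Salmon River fish 1435, 1439, 1441 and 1442 had log ratios of -1.86, -0.77, -2.10 and -2.06, and the Chehalis fish ran from 0.09 to 2.28 with a median of 1.09, with no overlap. In the Chilliwack the 8 hatchery fish ran from -2.05 to 0.13 (median -1.27) and the 7 wild fish from -1.74 to 2.07 (median -0.27). The hatchery group was thus the higher in 2009 and the lower by its mean in 2008. The difference between the pairs was 3.87 ± 0.66 log2 units (SE, adjusted p = 0.00243 in limma).

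C174R128 showed the same order. Its values were -1.63, -2.10, -2.03 and -1.27 in the Salmon River fish and 0.01 to 1.14 (median 0.33) in the Chehalis fish, again with no overlap. Chilliwack hatchery fish averaged -2.16 ± 0.76 (SD, n = 8), below the wild fish at -0.73 ± 1.02 (SD, n = 7). The difference between the pairs was 3.58 ± 0.55 log2 units (SE, adjusted p = 0.00182 in limma).

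C042R155 ran the other way. It was 1.53, 1.65, 0.17 and 1.98 in the Salmon River fish and -1.89 to 0.79 (median -0.29) in the Chehalis fish, which overlapped through fish 1441. Chilliwack hatchery fish averaged -1.08 ± 0.64 (SD, n = 8), above the wild fish at -3.28 ± 1.09 (SD, n = 7). The difference between the pairs was -4.05 ± 0.65 log2 units (SE, adjusted p = 0.00210 in limma). For C027R053 the means of 2009 were 0.25 ± 0.67 (SD, n = 8) in Chehalis and 0.58 ± 0.54 (SD, n = 4) in Salmon River fish, a river difference of -0.33 that did not pass the test (adjusted p = 0.546 in limma). In the Chilliwack the 8 hatchery fish ran from 0.79 to 5.64 (median 4.09) and the 7 wild fish from -0.80 to 2.93 (median 0.20). The difference between the pairs was -3.50 ± 0.86 log2 units (SE, adjusted p = 0.0408 in limma), and it was not called without any one of the Salmon River fish, with adjusted p of 0.0626 to 0.0955 in limma. Of these 4 probes the others were called in each of those fits. All 4 were called without the wide-spread arrays, with 3 hatchery and 5 wild Chilliwack fish left.

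Across probes the 2 hatchery minus wild differences correlated at 0.0578 to 0.241, depending on the probes and arrays used. Of 1842 probes called between the rivers and fitted in the Chilliwack, 57.5% had the same sign there, against 52.8% of all 18133 probes in both, with r = 0.126 and 0.0578. Without the wide-spread arrays these shares were 62.9% of 2340 and 56.7% of 21442 probes, with r = 0.241 and 0.179. That left 3 hatchery and 5 wild Chilliwack fish. The correlations are across probes that are not independent, all arrays share the pool as reference, and no test was made of them.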

How the data were processed

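Gill RNA of each fish was amplified and labelled with Alexa 555, and a pool of gill RNA with Alexa 647, per the labels' protocols. The authors deposited 1 log ratio per spot, taken here as log2 and left as deposited. Array medians lay near 0. For scanner, background correction, normalization and the rule behind empty values, the method is not given in the sources used here. The processed table, whose unit was recorded as other, and the authors' deposited series table held identical values on the 12 arrays. On the other arrays their values were not compared, and the processed table was used except where the series table is named. Control spots (60) were left out of all tests, 44.7% of probe values were empty and no empty value was replaced. Precision is limited by the number of arrays.

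Differences were fitted with limma 3.58.1 in R 4.3.3 (lmFit, eBayes, two-sided, Benjamini-Hochberg within each comparison). A call is an adjusted p below 0.05. Probes entered with values in at least 50% and at least 2 fish of each group, in 6 Chehalis fish for their slope, and in 6 and 3 fish for separate slopes. Permutation tests were exact (Python 3.11.15 and SciPy 1.17.1). Those between the rivers with all 12 fish ran over all 495 assignments. Those of r and rho ran over all orders of the 8 Chehalis fish. Plots used matplotlib 3.10.9. Probes were named by rule: per comparison the 2 largest positive and 2 largest negative among called probes with a value in every fish, then those of lowest p. C066R059 and the probes measured in 1 river only were singled out after their values were seen. Gene lists could not be used, as no table pairs probes with genes.

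The members, comparisons and lists were chosen with earlier results of these data known, and the 5 probe comparisons had been run once in a trial before the final fits. Replicates are separate fish. Simulated data with 200 changed probes served to test the fits, with independent noise and so without shared array effects. On 23171 probes the river fit found 32 of 100 differences of 1 log2 unit and 89 of 100 of 2 log2 units, with 8 false calls among 129. The shared slope recovered 80 and 93 of 100 slopes, on 23171 probes, with 16 false calls among 189. The comparison of pairs recovered 9 and 54 of 100 changes on 18133, with 4 false calls among 67. For the Chehalis slope 1 call among 54 was false. Alternatives were the series table, centring, quantile normalization, value filters, the variance prior, array weights, single fish, slide, array position, size covariates and sex.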

Additional observations from a re-analysis of the deposited data

Results flagged for a closer look

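Among 62 sets of 4 or 8 fish examined, 8 held 1 fish far from the others of its river, where chance marks about 1 set in 20 and the probes among them were partly chosen for their slopes. Salmon River fish 1442 stood apart in fork length (11.7 cm), in total mass (16.08 g), in C093R023 (-2.47) and in C174R013 (-0.38). Salmon River fish 1439 stood apart in C132R109 (1.13), C165R053 (2.17) and C234R093 (1.82). Chehalis fish 1618 stood apart in C069R076 (-2.63).

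The river difference differed from that of the Chilliwack pair for 208 probes by the interaction term in limma. The difference between the pairs was 3.87 for C136R119, 3.58 for C174R128, -4.05 for C042R155 and -3.50 for C027R053. The slope of C066R059 differed between the rivers by 17.58 log2 units per cm, through fish 1435.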

How the results depend on the processing

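The count of 2589 probes between the rivers was within 1.5 times of itself with centring, the series table, every estimable probe, a trended robust prior, array weights and condition factor. The series table held identical values on these 12 arrays and array medians lay near 0, so agreement with it and with centring was built in. The count was 1242 with quantile normalization, 1120 for probes with a value on every array, 1478 with array position, 102 with all 82 arrays, 97 and 11 with slide as a random and a fixed block, 1 with fork length and 38 in males alone. Of settings chosen after seeing the data, 68 arrays without wide spread gave 996, the wide-spread profile as a covariate 1002, leaving out fish 1615, 1616 and 1618 gave 1044, leaving out 1439 and 1618 gave 1095, and the DarkCorner and slide terms 0 each. Without single fish it ran from 704 to 3335. The cause of these shifts was not tested.

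The Chehalis slope gave 0 calls under every alternative run, single fish included. The shared slope gave 133 with array weights, 0 with total mass and 0 to 3 without single fish. The slope difference gave 0 with quantile normalization, 0 for probes with a value on every array and 0 to 2 without single fish. The comparison with the Chilliwack gave 576 with quantile normalization, 392 with the series table, 101 for probes with a value on every array, 2795 with array weights (1129 more positive, 1666 more negative, so the balance turned), 678 without fish 36, 677 with fork length, 53 with the DarkCorner log ratio and 77 to 161 without single Salmon River fish. The alternatives gave 412 values of named probes, called and uncalled together, and only those of called probes could lose a call. These were 32 values for each called river probe, 20 for C093R023 and 15 for each called probe of the Chilliwack comparison. Among them 52 lost the call and none changed sign. Among values of uncalled probes 4 gained a call.

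Without single fish the difference was 2.004 to 3.10 cm in fork length, 7.56 to 11.0 g in mass and 0.0581 to 0.107 in condition factor. With medians it was 2.85 cm and 0.0883, each with an adjusted p of 0.0525 by exact permutation. The position of 2 of the fish moved by more than the SD of their river with 50 or 1000 probes. No paired analysis was possible because no fish number occurs in both rivers.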

Other observations

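Only all-or-none differences in the presence of a value were counted. With a value in all 4 Salmon River smolts and in no Chehalis smolt there were 5 of the 43236 probes, and these 5 are named here after their values were seen. Their Salmon River log ratios ran from 0.0040 to 1.64 for C109R028, from 0.43 to 0.85 for C122R089, from 0.27 to 2.31 for C140R003, from -0.0038 to 2.57 for C154R161 and from 0.78 to 1.82 for C234R093. On 56 arrays of other groups, wide-spread ones left out, these probes had values on 16, 3, 27, 8 and 31 arrays in that order. The opposite pattern, a value in all 8 Chehalis and no Salmon River smolts, was found for 0 probes. The counts of these patterns are not like for like, since the first needs 8 empty values and the opposite 4. What leaves a value empty is not given in the sources used here.

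Read as column and row of the array, the probe IDs part the tested probes into 4 blocks in which 10.7% to 11.6% were called for the river difference. Higher in Chehalis smolts were 287 of 683 called probes in the block of low columns and rows and 360 of 624 in the block of high ones. That the IDs give the place on the array is an assumption.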
